A study of Mus musculus with 2 samples.

Results

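Glycolysis, the pathway that turns glucose into pyruvate or lactate, was followed through 10 of its enzyme genes in single cells of an injured and a normal mouse kidney. The genes are Hk1, Gpi1, Pfkl, Aldoa, Tpi1, Gapdh, Pgk1, Eno1, Pkm and Ldha, a list of textbook enzymes, and all 10 were among the 15169 genes of the deposited table. The IRI library came from a kidney after unilateral ischaemia-reperfusion injury (blood flow stopped, then restored) with the contralateral kidney removed, and the control library from a normal kidney. Both kidneys were from wild-type C57BL/6 mice of 9 weeks, dissociated with enzymes and profiled in droplets. The time after injury and the number of animals behind each library are not given in the sources used here. With 1 library per group there is no replicate and therefore no test: every difference below is between 2 libraries, and a difference between animals cannot be told apart from one made by injury.

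The IRI library held 5170 cells with a median of 1888.5 raw UMIs (unique molecule counts), and the control library 6589 cells with a median of 2344. The deposited values are depth-corrected counts: each cell's counts were moved toward what a cell of average depth would give, so a value is a level on a common scale and not a number of molecules. In cells of under 1000 raw UMIs the corrected count of Gapdh was never below 1, so shares of cells above 0 are not used. Levels are given as the mean corrected count per cell, and ratios as log2 of IRI over control after 0.05 was added to each mean. A ratio counted as called when it passed 2-fold, among genes whose corrected counts summed to 10 or more in the compared cells. UMIs were also read back from the corrected counts and are given per 10000 raw UMIs of the cell group. Between the libraries, 55 cell barcodes were shared.

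Hexokinase (Hk1) and glucose phosphate isomerase (Gpi1) start the pathway, and phosphofructokinase (Pfkl, the liver form) carries out its best known regulated step. Aldolase (Aldoa) splits the sugar, and triose phosphate isomerase (Tpi1) interconverts the products. Gapdh, Pgk1, Eno1 and pyruvate kinase (Pkm) run the energy-yielding lower part, and lactate dehydrogenase (Ldha) turns pyruvate into lactate. Proximal tubule is known to rely mainly on oxidation of fatty acids and to make glucose, whereas the distal nephron is known to use glucose. Activated macrophages are known to raise glycolysis. Many of these genes are textbook targets of the hypoxia-inducible factor HIF1, whose binding motif contains the letters ACGTG or GCGTG.

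Promoter windows from RefSeq (build GRCm38.p6, 250 bases before to 50 after each start) were matched for all 10 genes and gave 17 windows, some of them overlapping. The letters ACGTG, on either strand, stood in 7 of the 17 windows (41.2%), against 19.6% of all 32851 windows. GCGTG stood in 8 of 17 (47.1%), against 32.4% of all windows, and either motif in 12 of 17 (70.6%), against 43.8%. No window of Gpi1 or Tpi1 held either one. The windows below are shown because Ldha, Pgk1 and Pkm were at least 2-fold higher in IRI macrophages in what follows, whereas Tpi1 was not. The 3 windows of Eno1, also higher there, held 2 matches of GCGTG each and none of ACGTG. Enzymes not called there held matches too. Summed over its windows, Hk1 had 2 of ACGTG and 3 of GCGTG, and Gapdh 1 and 2. Aldoa had 2 of ACGTG and 0 of GCGTG, and Pfkl 0 and 1. Capitals mark ACGTG or GCGTG on either strand. Where the letters read CACGTG, a match on each strand overlaps the other and both are counted, so that Ldha has 5 matches of ACGTG and 2 of GCGTG.
Ldha (chr7:46845554-46845853, plus strand): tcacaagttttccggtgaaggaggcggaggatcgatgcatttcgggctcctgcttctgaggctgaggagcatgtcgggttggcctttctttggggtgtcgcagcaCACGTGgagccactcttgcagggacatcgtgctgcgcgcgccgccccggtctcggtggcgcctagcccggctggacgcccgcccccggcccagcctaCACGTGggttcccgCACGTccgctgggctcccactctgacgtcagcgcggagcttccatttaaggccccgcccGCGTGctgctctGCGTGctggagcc
Pgk1 (chrX:106186850-106187149, plus strand): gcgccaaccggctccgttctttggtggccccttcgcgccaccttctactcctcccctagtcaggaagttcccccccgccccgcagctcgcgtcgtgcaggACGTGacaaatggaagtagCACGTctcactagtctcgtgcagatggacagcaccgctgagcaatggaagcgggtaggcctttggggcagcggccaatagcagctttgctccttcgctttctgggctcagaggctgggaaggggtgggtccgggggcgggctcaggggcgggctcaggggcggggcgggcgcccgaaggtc
Pkm (chr9:59656977-59657276, plus strand): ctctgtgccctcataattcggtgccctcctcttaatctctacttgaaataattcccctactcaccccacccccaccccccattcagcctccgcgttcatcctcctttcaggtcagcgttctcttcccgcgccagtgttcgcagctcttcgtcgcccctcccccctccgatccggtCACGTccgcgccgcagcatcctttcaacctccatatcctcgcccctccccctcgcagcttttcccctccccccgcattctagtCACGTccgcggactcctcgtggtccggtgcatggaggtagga
Tpi1 (chr6:124814109-124814408, minus strand): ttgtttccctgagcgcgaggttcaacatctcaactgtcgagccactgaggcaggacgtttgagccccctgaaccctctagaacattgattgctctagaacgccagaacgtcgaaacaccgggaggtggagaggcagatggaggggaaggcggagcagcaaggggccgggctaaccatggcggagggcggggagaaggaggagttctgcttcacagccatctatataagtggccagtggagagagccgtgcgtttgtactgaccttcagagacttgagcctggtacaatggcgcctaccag
In these windows Pgk1 and Pkm had 2 matches of ACGTG each, and Tpi1 had 0 of either motif. A match describes letters only, and binding was not measured here.

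Summed over the 10 genes, enzyme UMIs took the highest share of all UMIs in IRI intercalated cells of the collecting duct, followed by IRI thick ascending limb. The authors' intercalated type (CD-IC) had 64.3 enzyme UMIs per 10000 in IRI and 42.3 in control. Thick ascending limb (TAL) had 55.1 in IRI and 39.7 in control. Both cell types are known for ion transport. Among control groups PT-S2, the second segment of proximal tubule, lay level with CD-IC, at 42.4. The sum is weighted to its most abundant transcripts. Gapdh alone gave 21.5 in control PT-S2 and 12.3 in control CD-IC, whereas Pkm gave 0.07 and 3.43. The thin descending limb type (tDL) had 49.3 in IRI and 33.6 in control. The lowest totals were in B cells, at 10.99 in IRI and 13.8 in control, and in red cells of the control library, at 10.7. Of the 13 cell types that reached 20 cells in each library, 10 had the higher total in IRI. The other 3 were B cells, PT-S1 (33.1 in IRI and 34.0 in control) and myofibroblasts (21.7 in IRI and 29.8 in control), with 35 IRI and 31 control myofibroblasts.

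**Figure D1:**
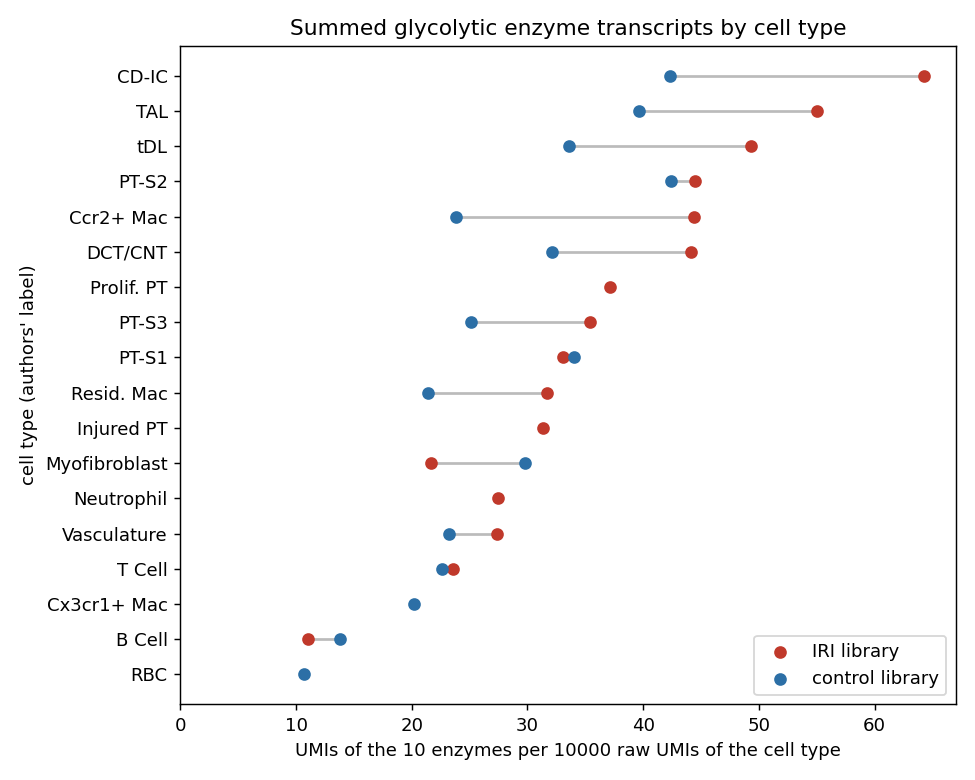
UMIs of the 10 enzymes per 10000 raw UMIs (x axis) in each cell type named by the authors (y axis), with IRI in red and control in blue, 1 library each. Types with under 20 cells in a library have no point there. The IRI point lies to the right in 10 of 13 types, with CD-IC at 64.3 in IRI and 42.3 in control.

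Each enzyme had its own order of cell types, which is given on the corrected scale unless UMIs are named. Hk1 was highest in CD-IC cells in both libraries, with a mean corrected count of 0.27 in IRI and 0.30 in control, and had 0 UMIs in IRI B cells and neutrophils. Aldoa was likewise highest in CD-IC, at 3.22 in IRI and 2.70 in control. Its next levels in IRI were 3.04 in TAL and 2.75 in DCT/CNT (distal convoluted and connecting tubule). Tpi1 was highest in CD-IC in IRI, at 2, and in PT-S2 in control, at 1.63. Gapdh peaked in Ccr2+ macrophages in IRI (4.01), with PT-S1, PT-S2 and tDL close to it at 3.91 each. The control peak of Gapdh was PT-S2, at 3.81. Eno1 and Ldha also peaked in Ccr2+ macrophages in IRI, at 1.09 and 1.12. In control Eno1 peaked in CD-IC, at 0.70, and Ldha in T cells, at 0.86. By read-back UMIs per 10000 IRI Gapdh was highest in PT-S2, at 23.0, with Ccr2+ macrophages at 18.9. IRI Eno1 was then highest in CD-IC, at 5.28, with Ccr2+ macrophages at 4.37. IRI Ldha stayed highest in Ccr2+ macrophages, at 4.87. In control Eno1 was then highest in TAL, at 3.54, and Ldha in tDL, at 4.30. Pkm was highest in DCT/CNT in IRI, at 1.56, followed by Ccr2+ macrophages at 1.43 and CD-IC at 1.40. By exact UMIs per 10000 the IRI order of Pkm was another. CD-IC came first at 6.19 and DCT/CNT next at 5.85, and tDL (4.58) and TAL (4.55) were level with Ccr2+ macrophages (4.52). The control peak of Pkm was TAL, at 0.84. By exact UMIs it was myofibroblasts, at 3.90, with TAL at 3.83. Spread between animals is unknown here, so neighbours in these orders cannot be separated.

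**Figure D2:**
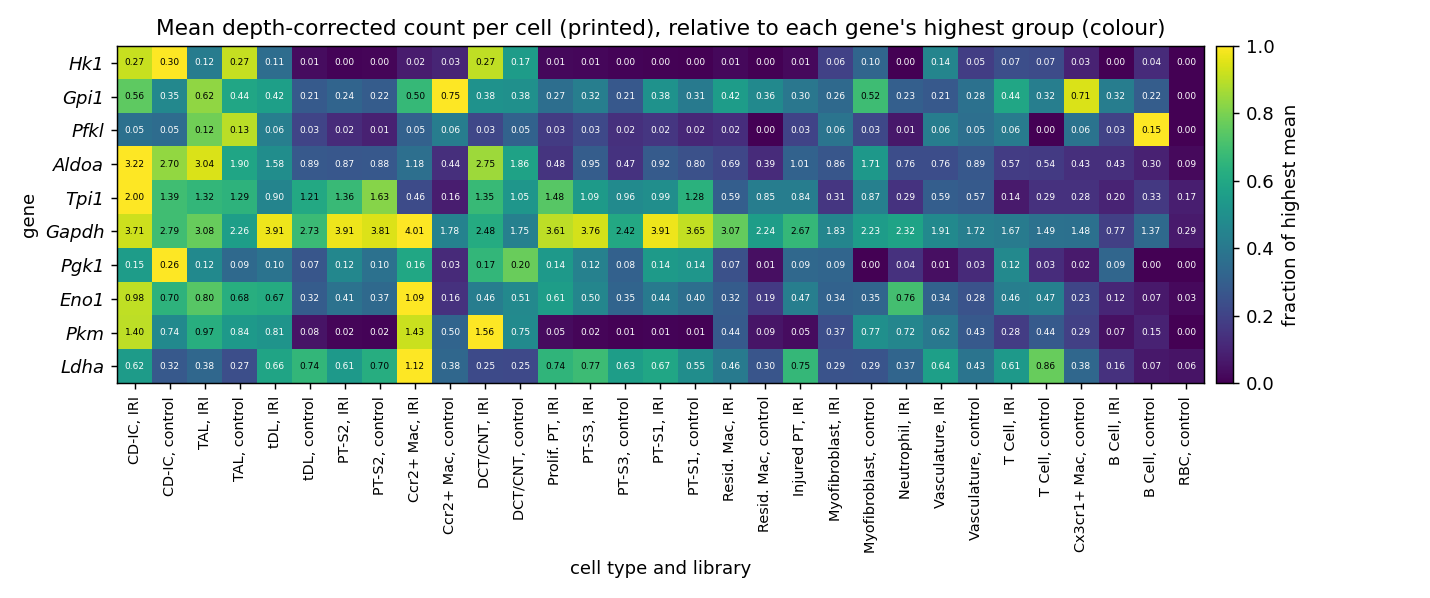
Mean depth-corrected count per cell of each enzyme (rows) in each cell type and library (columns, IRI left of control), printed in the cells. Colour is the fraction of each gene's own highest group, so colours are not comparable between genes. Pkm is dark in every proximal tubule column, at 0.01 to 0.05, and bright in DCT/CNT (1.56 in IRI and 0.75 in control).

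In macrophages 4 of the 10 enzymes were at least 2-fold higher in IRI, each of them from Pgk1 on down the pathway. Macrophages, pooled from the authors' resident (Resid. Mac), Ccr2+ and Cx3cr1+ types, counted 542 cells in IRI and 326 in control. At least 2-fold higher were Pkm, Eno1, Pgk1 and Ldha (4 of 10 measured), where 2.46% of the 7893 genes measured were called, and 0 of 10 were at least 2-fold lower, where 2% were called. The median log2 ratio of the 10 was 0.90, beside -0.05 for all genes measured.

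Pkm, whose product makes pyruvate, had a mean corrected count of 0.85 in IRI and 0.20 in control macrophages, a log2 ratio of 1.86. Its exact UMIs were 925 in IRI, or 4.10 per 10000 (exact Poisson 95% interval 3.84 to 4.37), and 98 in control, or 1.15 per 10000 (0.93 to 1.40). The intervals, which cover counting error only, did not overlap. Eno1, which makes the substrate of pyruvate kinase, averaged 0.63 in IRI and 0.20 in control (log2 ratio 1.47), or 3.79 and 1.29 read-back UMIs per 10000. Ldha averaged 0.72 in IRI and 0.33 in control (log2 ratio 1.02), or 4.24 and 1.92 per 10000. Pgk1, which makes ATP, was scarce, with 0.10 in IRI and 0.02 in control (log2 ratio 1.21). Its read-back UMIs were few, 119 in IRI and 13 in control, and on the deposited scale they could lie between 0.31 and 1.33 per 10000 in IRI and between 0.06 and 0.74 in control.

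Aldoa and Gapdh lay just under the limit. Aldoa averaged 0.87 in IRI and 0.41 in control macrophages, with a log2 ratio of 0.99. Gapdh averaged 3.44 in IRI and 1.95 in control (log2 ratio 0.81), and by read-back UMIs it had 17.9 and 8.73 per 10000. By read-back UMIs, with nothing added, 5 of 10 passed 2-fold, Gapdh (2.05-fold) beside those 4. Hk1, Gpi1, Pfkl and Tpi1 had log2 ratios between -0.18 and 0.09 on the corrected scale, and the sign of each depended on the setting. Gpi1 averaged 0.46 in IRI and 0.51 in control (log2 ratio -0.12), and Tpi1 0.52 in IRI and 0.60 in control (log2 ratio -0.18). By read-back UMIs Tpi1 had 3.05 per 10000 in IRI and 2.58 in control, and in Ccr2+ cells alone its log2 ratio was 1.31. Hk1 had 26 UMIs in IRI and 6 in control, and Pfkl 39 in IRI and 9 in control. Per 10000 raw UMIs each was 1.64-fold higher in IRI, and their counting intervals overlapped between libraries. Their corrected means, 0.01 and 0.03 in IRI, lie under the added 0.05, which holds such ratios near 0. Together the 10 enzymes made up 41.0 per 10000 raw UMIs in IRI and 21.3 in control macrophages.

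The make-up of the macrophages differed between the libraries. Ccr2+ Mac, named for a receptor of monocytes that enter tissue, was 40.0% of the macrophages in IRI and 9.82% in control, and Cx3cr1+ Mac was 3.51% in IRI and 32.5% in control. Without the Ccr2+ type the pool held 325 IRI and 294 control cells, and 1 of 9 measured enzymes stayed past 2-fold, where 1.36% of genes were called higher. It was Pkm, at 0.46 in IRI and 0.16 in control (log2 ratio 1.24). Lower calls were 0 of 9, where 4.1% were called, and the median of the 10 was 0.50, beside -0.22 for all genes. Eno1 then averaged 0.33 in IRI and 0.20 in control (log2 ratio 0.59), and Ldha 0.45 in IRI and 0.33 in control (log2 ratio 0.42). In Resid. Mac alone, with 306 IRI and 188 control cells, Pkm averaged 0.44 in IRI and 0.09 in control (log2 ratio 1.81), the 1 call among 8 measured, where 6.61% of genes were called higher. Lower calls were 0 of 8, where 3.27% were called. It rested on 147 UMIs in IRI (2.98 per 10000) and 8 in control (0.50 per 10000). Hk1 had 4 UMIs in IRI Resid. Mac and 0 in control, which at 3 UMIs allows up to 0.19 per 10000 there.

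The difference between Ccr2+ Mac and Resid. Mac in their ratios was not tested. Cx3cr1+ Mac, with 19 IRI cells, was not compared. With 217 IRI and 32 control cells, 7 of 9 measured enzymes were at least 2-fold higher, where 12.5% of the 4482 genes measured were called higher, and 0 of 9 lower, where 6.51% were called. Eno1 averaged 1.09 in IRI and 0.16 in control (log2 ratio 2.46), Ldha 1.12 in IRI and 0.38 in control (log2 ratio 1.47), and Pkm 1.43 in IRI and 0.50 in control (log2 ratio 1.43). Read-back UMIs gave Pkm 4.52 per 10000 in IRI and 1.75 in control, and Eno1 4.37 and 1.42. By read-back UMIs the count fell to 3 of 8, Eno1 (3.09-fold), Pkm (2.59-fold) and Ldha (2.15-fold), with Aldoa at 1.94-fold and Gapdh at 1.95-fold. Tpi1, lower in Resid. Mac, averaged 0.46 in IRI and 0.16 in control Ccr2+ cells. Within the IRI library, Ccr2+ Mac over Resid. Mac had Eno1 (log2 ratio 1.63), Pkm (1.59) and Ldha (1.21) at least 2-fold higher, 3 of 9 measured, where 20.3% of genes were called, and 0 lower, where 2.22% were called. The IRI and control cells of the Ccr2+ type were not alike in other markers. All 6 of the dendritic cell markers were above 0 on both sides, with a summed mean of 0.47 in IRI and 3.22 in control, and Cd209a alone reached 1.75 in control. Of the macrophage marker list, whose other members are not given here, C1qa, C1qb and Mrc1 were at 0 in the control cells. The part of this difference in the enzyme ratios was not tested.

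Proximal tubule RNA moved with the library as well. Kap, a gene of proximal tubule, averaged 2.57 in IRI and 11.5 in control macrophages, and all 18 proximal tubule markers were above 0 on both sides, with a summed mean of 5.43 in IRI and 16.4 in control. Median raw UMIs per macrophage were 2005 in IRI and 937.5 in control. After a subtraction of the library's average profile scaled to Kap, the median log2 ratio of the 10 enzymes was 1.38, and among cells of 2000 raw UMIs or more it was 1.18. Markers of division, which sum 8 genes, averaged 0.65 in IRI and 0.10 in control macrophages, all 8 above 0 in IRI and 6 in control. Their part in the enzyme ratios was not tested.

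**Figure D3:**
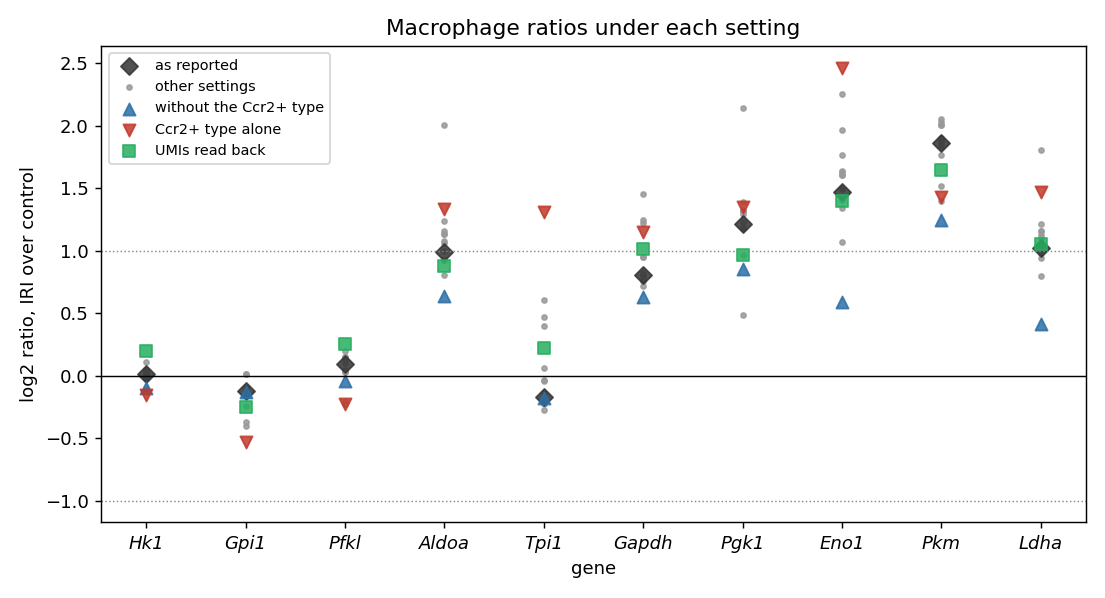
Log2 ratio of IRI over control in macrophages for each enzyme (x axis) under each way of computing it. Diamonds are the values as reported, blue triangles leave out the Ccr2+ type, red triangles are the Ccr2+ type alone, green squares are UMIs read back and grey points are the other settings. Dotted lines mark 2-fold. Pkm stays above 1 at every setting, and Eno1 and Ldha drop to 0.59 and 0.42 without the Ccr2+ type.

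In proximal tubule no enzyme passed 2-fold in either direction. The authors' types PT-S1, PT-S2 and PT-S3 held 3261 IRI and 4827 control cells, and all 10 enzymes were measured. At least 2-fold higher were 0 of 10, where 0.41% of 11944 genes were called, and at least 2-fold lower 0 of 10, where 0.762% were called. The median log2 ratio of the 10 was 0.17, beside -0.01 for all genes. On the corrected scale Gpi1 had a ratio above the other 9, with 0.30 in IRI and 0.23 in control (log2 ratio 0.36). Tpi1 was the one below 0, with 1.18 in IRI and 1.39 in control (log2 ratio -0.23). Gapdh averaged 3.87 in IRI and 3.37 in control, and Ldha 0.66 in both libraries. Pkm was scarce, at 0.02 in IRI and 0.01 in control, with 0.12 exact UMIs per 10000 in IRI (95% interval 0.10 to 0.15) and 0.07 in control (0.06 to 0.09), 1.65-fold and above the 1.36-fold of Gpi1 by read-back UMIs. Hk1 had 14 UMIs in IRI and 28 in control proximal tubule, 0.014 per 10000 in each. The 10 enzymes together had 36.3 UMIs per 10000 in IRI and 34.4 in control.

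The 3 segments had ratios of their own. In PT-S3, the straight segment known as the most exposed to ischaemia, 10 of 10 ratios were above 0 on the corrected scale. They include Hk1, which had under 10 summed counts, and the matching share of all genes is not given here. The median of the 10 was 0.30, beside -0.06 for all genes. Of the 9 measured, 0 passed 2-fold upward, where 1.09% of genes were called, or downward, where 2.34% were called. Aldoa averaged 0.95 in IRI and 0.47 in control (log2 ratio 0.93). Gapdh averaged 3.76 in IRI and 2.42 in control PT-S3 cells (log2 ratio 0.63), and Gpi1 0.32 in IRI and 0.21 in control (log2 ratio 0.54). The total in PT-S3 was 35.4 UMIs per 10000 in IRI and 25.1 in control. PT-S3 cells lay mostly in different clusters in the 2 libraries. Cluster 3 held 727 IRI and 127 control cells, and cluster 4 held 58 and 742. Within cluster 3, 7 of 10 ratios were above 0, Hk1 again among them. The median there was 0.08, beside -0.03 for all genes. Aldoa had a log2 ratio of 0.36 there, Gapdh 0.10 and Gpi1 0.48. Pgk1 (-0.22), Pkm (-0.12) and Tpi1 (-0.06) were below 0. In PT-S1 and PT-S2 Aldoa had log2 ratios of 0.20 and -0.03, and Gapdh 0.10 and 0.04. By exact UMIs 2 scarce enzymes passed 2-fold in PT-S1. Pkm had 58 UMIs in IRI, or 0.11 per 10000 (95% interval 0.09 to 0.15), and 13 in control, or 0.04 (0.02 to 0.07), a 2.66-fold difference. Pfkl there had 0.12 per 10000 in IRI (0.09 to 0.16) and 0.06 in control (0.04 to 0.09), 2.05-fold. The difference between segments was not tested. Kap averaged 29.3 in IRI and 58.7 in control PT-S3 cells, and median raw UMIs were 2338.5 in IRI and 4507.5 in control. By exact UMIs Pfkl in PT-S3 had 0.12 per 10000 in both libraries, a log2 ratio of -0.06. The types Injured PT (135 cells) and Prolif. PT (155 cells) were compared with the other proximal tubule cells of the IRI library, since control had fewer than 20 of each. None of the 10 enzymes passed 2-fold upward in Injured PT, where 2.41% of genes were called, or in Prolif. PT, where 1.53% were called, and none passed downward, where 1.48% and 0.88% were called. Injured PT had Gapdh at 2.67, against 3.87 in the other IRI proximal tubule, and Pkm at 0.05, against 0.02. Prolif. PT had Aldoa at 0.48, against 0.90 in the other IRI proximal tubule (log2 ratio -0.84).

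In distal tubule Pkm alone passed 2-fold, at the limit, and it did so on the corrected scale but not by UMIs. The type DCT/CNT counted 63 IRI and 236 control cells. Slc12a3, the thiazide-sensitive transporter and a marker of this type, averaged 4.397 in IRI and 2.63 in control. Other markers of the type are not given here. Pkm was the 1 enzyme at least 2-fold higher (1 of 10, where 2.22% of 5989 genes were called), with 1.56 in IRI and 0.75 in control and a log2 ratio of 1.01. Its exact UMIs were 176 in IRI, or 5.85 per 10000 (95% interval 5.01 to 6.78), and 242 in control, or 3.59 per 10000 (3.15 to 4.07), a ratio of 1.63-fold that does not reach the limit. At least 2-fold lower were 0 of 10, where 4.78% were called. Aldoa averaged 2.75 in IRI and 1.86 in control (log2 ratio 0.55), Hk1 0.27 in IRI and 0.17 in control (log2 ratio 0.57), and Gapdh 2.48 in IRI and 1.75 in control (log2 ratio 0.49), none of them past the limit. The sign of Hk1 turned with the thick ascending limb added (log2 ratio -0.29) and in cluster 24 alone (-0.06). Eno1, Pgk1, Pfkl, Gpi1 and Ldha lay between -0.24 and 0.02. Ldha averaged 0.25 in both libraries, although its read-back UMIs were 1.86 per 10000 in IRI and 1.33 in control, and the sign of Pfkl was also turned by read-back. The median of the 10 was 0.18, beside -0.04 for all genes, and the total was 44.1 UMIs per 10000 in IRI and 32.2 in control.

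The distal cells came from 2 clusters whose shares differed between libraries. Cluster 15 gave 49.2% of the IRI and 72.9% of the control cells, and cluster 24 the rest. Pkm averaged 1.13 in IRI and 0.58 in control cells of cluster 15 (log2 ratio 0.91), and 1.97 in IRI and 1.20 in control cells of cluster 24 (log2 ratio 0.69). Within each cluster it therefore stayed under 2-fold. Gapdh passed in cluster 24, at 1.91 in IRI and 0.80 in control (log2 ratio 1.21), and not in cluster 15 (0.53). Median raw UMIs per distal cell were 4472 in IRI and 2426.5 in control, and among cells of 2000 raw UMIs or more the log2 ratio of Pkm was 0.60. Kap in distal cells averaged 1.73 in IRI and 10.1 in control.

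**Figure D4:**
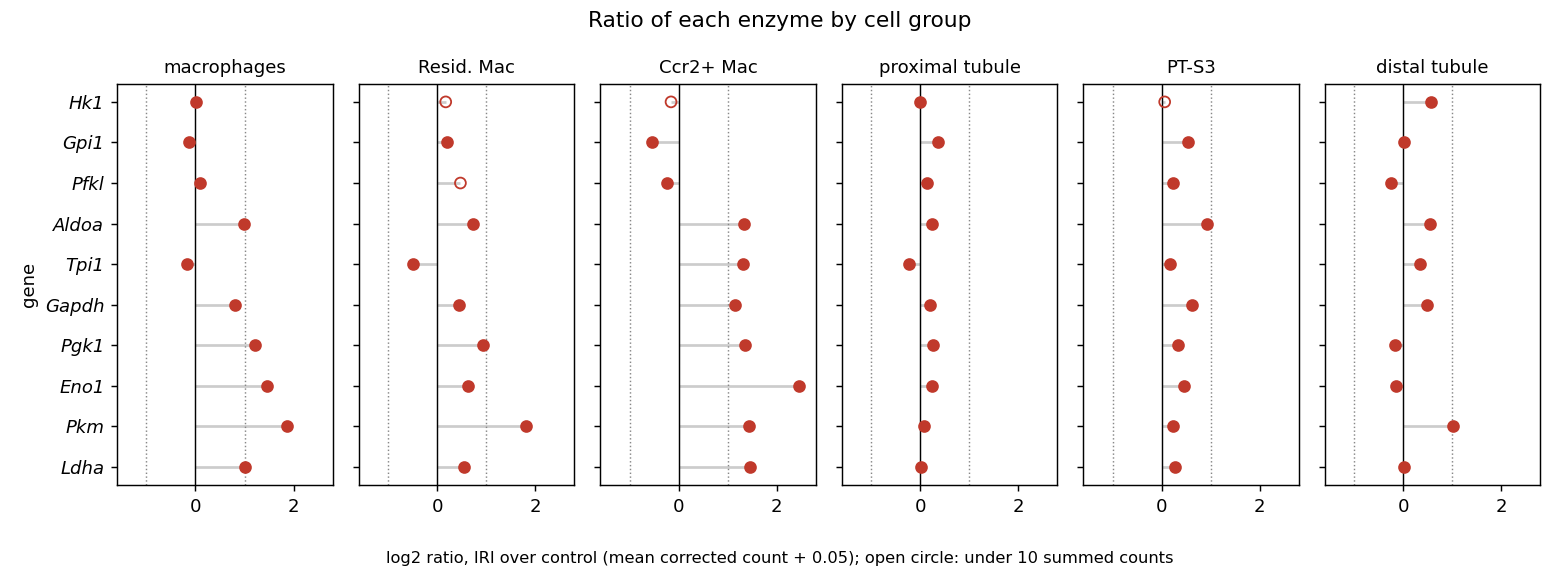
Log2 ratio of IRI over control for each enzyme (rows) in 6 cell groups (panels), from mean corrected counts plus 0.05. Open circles had under 10 summed counts and dotted lines mark 2-fold. In macrophages Pkm, Eno1, Pgk1 and Ldha lie past the right line (1.86, 1.47, 1.21 and 1.02), in proximal tubule none does, and in distal tubule Pkm lies at 1.01.

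Elsewhere in the nephron, tDL carried the widest Pkm difference, 0.81 in IRI and 0.08 in control (log2 ratio 2.72). Its exact UMIs per 10000 were 4.58 in IRI and 0.33 in control. Pkm and Hk1 (0.11 in IRI and 0.01 in control) were the 2 of 10 enzymes at least 2-fold higher, where 4.96% of genes were called, and 0 were lower, where 6.39% were called. By read-back UMIs 5 of 10 passed, Hk1, Pkm, Pfkl (3.37-fold), Eno1 (2.16-fold) and Aldoa (2.05-fold). The cells of this type lay in different clusters in the 2 libraries, cluster 9 with 420 IRI and 36 control cells and cluster 11 with 20 IRI and 391 control cells. Kap averaged 11.8 in IRI and 70.2 in control tDL cells. Within cluster 9 Pkm averaged 0.85 in IRI and 0.53 in control (log2 ratio 0.63). There 2 of 10 enzymes were at least 2-fold higher and 0 lower, and the matching share of all genes is not given here. They were Hk1, at 0.11 in IRI and 0.03 in control (log2 ratio 1.06), and Gpi1, at 0.43 and 0.11 (1.58). The control side rested on 3 UMIs of Hk1 and 11 of Gpi1. Aldoa was lower in IRI in this cluster, at 1.64 in IRI and 2.03 in control (log2 ratio -0.30). In TAL, with 112 IRI and 324 control cells, Aldoa averaged 3.04 in IRI and 1.90 in control (log2 ratio 0.66), whereas Hk1 averaged 0.13 in IRI and 0.27 in control (log2 ratio -0.88), or 0.59 and 1.35 exact UMIs per 10000, past 2-fold. CD-IC had Pkm at 1.40 in IRI and 0.74 in control (log2 ratio 0.88) and Ldha at 0.62 in IRI and 0.32 in control (log2 ratio 0.87). Counted over the 13 types, Gapdh was higher in IRI in 11, whereas Tpi1 was higher in 6 and had a median log2 ratio of -0.26. Aldoa, Eno1, Pkm, Pgk1 and Gpi1 were each higher in 10 of 13, Pfkl and Ldha in 9 and Hk1 in 7. These counts include ratios from under 10 summed counts, such as Hk1 in PT-S1 and Resid. Mac and Pgk1 in B cells and myofibroblasts. The sign of Gpi1 in Resid. Mac also depended on the scale, with log2 ratios of 0.19 corrected and -0.12 by read-back UMIs. The counts describe types that share 2 libraries and are not replicates, and the matching share of all genes is not given here.

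Between cell types within a library, Pkm and Hk1 set the tubule segments apart. Macrophages over proximal tubule gave 3.70 in IRI and 1.92 in control as log2 ratios of Pkm. For distal over proximal tubule the log2 ratio of Pkm was 4.55 in IRI and 3.62 in control. Hk1 was likewise higher in distal than in proximal tubule, by log2 ratios of 2.58 in IRI and 2.01 in control, and so was Aldoa, by 1.55 and 1.25. By exact UMIs, with nothing added, Hk1 was 80.4-fold higher in distal than in proximal tubule in IRI and 53.5-fold in control, and Pkm 47.8-fold in IRI and 48.4-fold in control. Ldha went the other way and was lower in distal than in proximal tubule, by log2 ratios of -1.23 in IRI and -1.24 in control. Counted over all 10, distal over proximal tubule had 3 higher, where 8.47% of genes in IRI and 5.32% in control were called, and 1 lower, where 4.93% and 3.86% were called. On the corrected scale those 4 genes, Pkm, Hk1, Aldoa and Ldha, were the same in both libraries. By exact UMIs Pfkl was also past 2-fold, at 2.34-fold in IRI and 2.21-fold in control, from 8 and 13 distal UMIs. By read-back UMIs Ldha did not reach 2-fold in IRI, with 1.86 per 10000 in distal and 3.56 in proximal tubule. Gapdh was then past 2-fold lower in control, with 7.70 in distal and 16.8 in proximal tubule.

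The counts of enzymes between macrophages and tubule are given on the corrected scale. Macrophages over proximal tubule had 1 enzyme at least 2-fold higher and 1 lower in IRI, Pkm and Tpi1, where 7.24% and 7.91% of genes were called. In control 2 were higher, Pkm and Gpi1, where 6.76% were called, and 2 lower, Pgk1 and Tpi1, where 8.74% were called. Tpi1 was thus lower in macrophages than in proximal tubule in both libraries, with log2 ratios of -1.10 in IRI and -1.15 in control. The median over the 10 was 0.11 in IRI and -0.77 in control. By exact UMIs Hk1 was also past 2-fold higher in macrophages than in proximal tubule in both libraries. It had 0.12 per 10000 against 0.014 in IRI and 0.07 against 0.014 in control, from 26 and 6 macrophage UMIs. By read-back UMIs Tpi1 did not reach 2-fold in IRI, with 3.05 per 10000 in macrophages and 5.58 in proximal tubule. Macrophages over distal tubule had Ldha higher in IRI (log2 ratio 1.34), where 12.8% were called, and 3 lower, Hk1, Aldoa and Tpi1, where 18.9% were called. In control 0 were higher, where 8.88% were called, and 5 were lower, Hk1, Aldoa, Pgk1, Eno1 and Pkm, where 15.4% were called. By read-back UMIs Tpi1 in IRI did not reach 2-fold, with 3.05 per 10000 in macrophages and 5.75 in distal tubule. Neither did Eno1 in control, with 1.29 and 2.52.

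For several steps the table also holds isozymes, genes for other forms of the same enzyme. Shares are of summed corrected counts, are not adjusted for transcript length and carry free RNA of the library. Ldha, the muscle-type subunit, was 80.0% of Ldha plus Ldhb in IRI and 50.5% in control macrophages. It was 39.2% in IRI and 35.3% in control proximal tubule, and 7.66% in IRI and 8.30% in control distal tubule. Ldhb, the heart-type subunit, averaged 0.18 in IRI and 0.33 in control macrophages, and 3.06 in IRI and 2.76 in control distal cells.

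Pkm was 99.6% of Pkm plus Pklr in IRI and 98.5% in control macrophages, and all of it in distal tubule. In proximal tubule it was 35.7% in IRI and 49.3% in control, of 171 and 146 summed counts. By exact UMIs of Pkm and read-back UMIs of Pklr, the liver and red cell form, that share was 44.2% in IRI and 57.8% in control. Among phosphofructokinases, Pfkp (platelet form) was 56.4% of 39 counts in IRI macrophages and Pfkl 41.0%. In proximal tubule Pfkl was 49.4% of 154 counts in IRI and 48.4% of 161 in control. Of the 46 hexokinase counts in IRI macrophages Hk2 held 67.4%, and Hk1 15.2%, whereas all 39 in control distal tubule were Hk1. Eno1 held 91.4% of enolase counts in IRI and 94.1% in control macrophages. Eno1b, a retrotransposed copy of Eno1, is in the table too and averaged 0.004 in IRI proximal tubule. How reads shared by such copies were assigned is not given in the sources used here, so Eno1, Gapdh, Pgk1 and Ldha, which have near-identical pseudogene copies, carry that uncertainty.

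**Figure D5:**
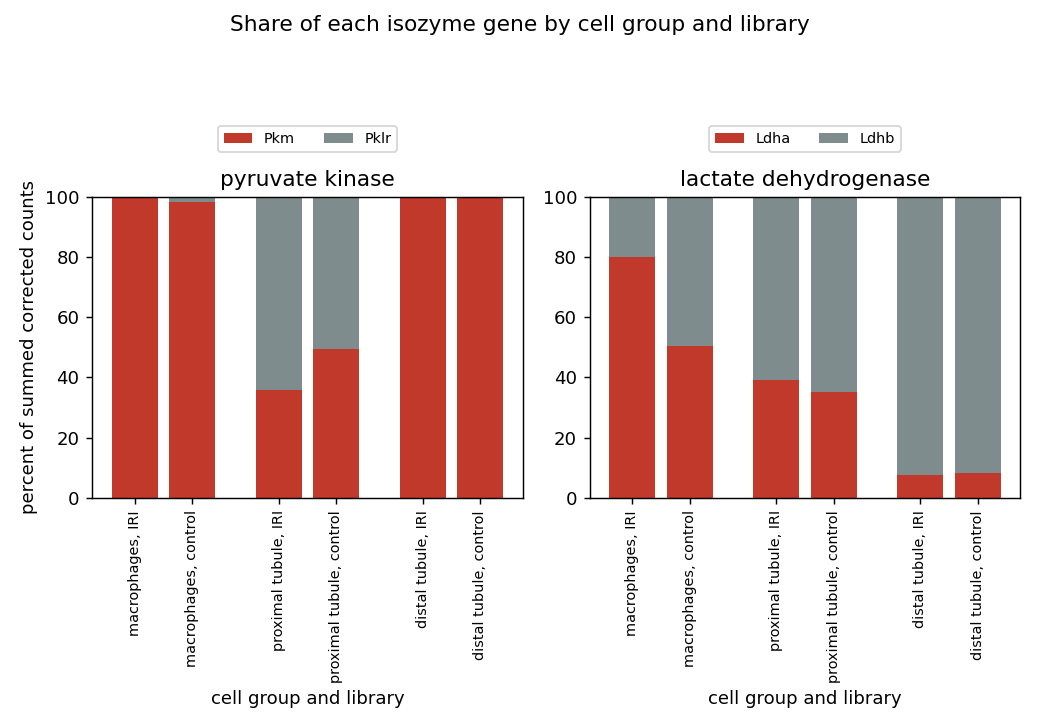
Percent of the summed corrected counts (y axis) held by each isozyme gene of pyruvate kinase and lactate dehydrogenase, in macrophages, proximal and distal tubule, IRI left of control. Ldha holds 80.0% in IRI and 50.5% in control macrophages, and 7.66% in IRI and 8.30% in control distal tubule.

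Neighbouring pathways were counted from 7 lists. Of the 20 other glycolysis genes counted, 12 were measured in macrophages, of which 0 passed 2-fold in either direction, with a median log2 ratio of -0.05. Pgam1, the mutase between Pgk1 and enolase, averaged 0.36 in IRI and 0.21 in control macrophages (log2 ratio 0.66). The glucose and lactate transport list had 0 of 6 measured members past 2-fold in macrophages, with a median of 0.24. Slc16a3, the lactate exporter MCT4, averaged 0.05 in IRI and 0.01 in control (log2 ratio 0.75). Pentose phosphate genes had 0 of 8 past 2-fold and a median of 0.36. Genes of pyruvate entry and the TCA cycle had 0 of 16 and a median of -0.27. Of the gluconeogenesis and fructose list 2 of 10 were lower in macrophages, Fbp1 (0.04 in IRI and 0.25 in control) and Khk (0.23 in IRI and 0.60 in control). Both are proximal tubule genes, and the tubule marker sum above was also lower in IRI macrophages, whose part in these values was not tested.

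Hypoxia response genes did not share one direction, with median log2 ratios of 0.24 in macrophages, -0.02 in proximal and 0.30 in distal tubule. In macrophages 1 of 16 measured passed 2-fold, Ddit4, an inhibitor of mTORC1, lower at 0.04 in IRI and 0.52 in control. Hif1a averaged 0.12 in IRI and 0.05 in control macrophages (log2 ratio 0.85). In proximal tubule 2 of 22 passed. Ndrg1 was higher, at 2.59 in IRI and 0.87 in control (log2 ratio 1.52), and Ddit4 lower, at 0.02 in IRI and 0.21 in control (log2 ratio -1.88). In distal tubule Vegfa, a growth factor for vessels, was higher at 0.22 in IRI and 0.08 in control (log2 ratio 1.01), 1 of 12 measured. The MYC target list had Odc1 lower in macrophages (1 of 7) and in proximal tubule (1 of 9), at 1.31 in IRI and 2.99 in control proximal tubule, and 0 of 6 in distal tubule.

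In proximal tubule none of the 15 other glycolysis genes, 11 gluconeogenesis and fructose genes, 8 pentose phosphate genes, 8 transport genes or 18 genes of pyruvate entry and the TCA cycle passed 2-fold. Mpc1, a mitochondrial pyruvate carrier, lay at the limit with 1.60 in IRI and 3.25 in control (log2 ratio -0.996). Distal tubule differed in the gluconeogenesis and fructose list, where 4 of 9 were lower: Pck1, G6pc, Khk and Sord. Pck1, the first committed enzyme of gluconeogenesis, averaged 0.17 in IRI and 0.49 in control there. All 4 are genes of proximal tubule, and the proximal tubule marker sum in distal cells was 3.37 in IRI (15 of 18 above 0) and 13.7 in control (18 of 18 above 0). Their part in these values was not tested. Pfkp was higher in distal cells, at 0.19 in IRI and 0.05 in control (log2 ratio 1.32), the 1 call among 7 other glycolysis genes. Ogdh of the TCA cycle was higher too (1 of 17), at 0.71 in IRI and 0.32 in control.

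Across the 31 groups of type and library with at least 20 cells, the enzymes were only partly alike. Pearson correlations between pairs of log2 levels ran from -0.18 (Pfkl and Ldha) to 0.78 (Aldoa and Eno1). Aldoa followed the average profile of the 10 most closely (r = 0.92) and Pfkl least (r = 0.44). Outside the list the 5 genes most like that average, among 7711, were Uqcc2 (r = 0.88), Ube2a (r = 0.87), Cox4i1 (r = 0.86), Ndufb7 (r = 0.84) and Atp5h (r = 0.84). Uqcc2, Cox4i1, Ndufb7 and Atp5h belong to the respiratory chain or ATP synthase or help assemble them. These values describe groups that share 2 libraries, their depth and their free RNA.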

How the data were processed

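The submitters' processing notes name Cell Ranger 3.0.0, Seurat 3.2 and mm9, and their roles are not given in the sources used here. Deposited values are of 3 kinds, read from the values themselves. One table holds a score, whole-number depth-corrected counts, with totals of 1468 to 3212 per cell. Another deposited table is the natural log of 1 plus that score, and the last holds residuals, also a score, of 3000 genes. The form of these values is that of the SCTransform method in Seurat. Raw counts were not analysed here. The deposited cell annotation runs library, raw UMIs, cluster and type together, and was split by matching corrected totals. Of 3615 cells with more than 1 possible split, 3526 were compared with residuals and 3525 lay nearer the kept one. UMIs were read back by inverting the depth correction, a step chosen after seeing the data. For Hk1, Pfkl and Pkm they came from residuals and returned the deposited value in 99.87% to 99.99% of cells. For the other members rounding leaves a range.

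The authors' types define macrophages, proximal tubule and distal tubule. No thinning of UMIs was done and doublets were not called. Named by rule were all 10 members, genes of the 7 lists past 2-fold, isozymes of the members and the 5 genes most alike. Pgam1, Slc16a3, Hif1a and Mpc1 were chosen after their values were seen. A few genes of the lists are not reported here and are left out of the counts. Members and lists were chosen with earlier results of these data known. The computation of ratios and the read-back were tested on simulated data, with Python 3.11.15, numpy 2.4.6, scipy 1.17.1 and pandas 2.3.3.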

Additional observations from a re-analysis of the deposited data

How the results depend on the processing

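No paired analysis was possible because each group has 1 library. The count of 4 enzymes at least 2-fold higher in macrophages was 2 with a pseudocount of 0.2, 2 with means of log values, 1 without the Ccr2+ type and 7 in the Ccr2+ type alone, where read-back UMIs gave 3. The median log2 ratio of the 10, 0.90, was 1.04 after scaling by the trimmed mean of log ratios and 1.04 by the median of gene ratios, scalings that shift the level of all genes there by -0.15 on the log2 scale. It was 1.13 in cells with at least 1000 raw UMIs, 1.18 with at least 2000, 1.38 after free RNA was subtracted and 1.32 in the Ccr2+ type alone, but 0.62 with a pseudocount of 0.2 and 0.50 without the Ccr2+ type. Without that type the median of all genes was -0.22. Distal Pkm, the 1 call there, was lost (0 calls) with a pseudocount of 0.2, in cells with at least 1000 or 2000 raw UMIs, with the thick ascending limb added, in cluster 15 alone and with UMIs read back. In cluster 24 alone Pkm was lost too and the 1 call was Gapdh, and after free RNA subtraction the count was 2. Between cell types a pseudocount of 0.2 gave 1 call in place of 2 for macrophages over proximal tubule in IRI and 0 in place of 4 in control, 2 in place of 5 for macrophages over distal tubule in control, and 2 in place of 4 for distal over proximal tubule in control. The causes were not tested. No called value changed sign under any alternative run. In thin descending limb read-back UMIs gave 5 calls in place of 2. In proximal tubule as a whole the counts stayed at 0 in each, and free RNA subtraction could not be defined there because its scaling gene is a proximal tubule gene. Leaving out the 55 shared barcodes changed no count by over 1.5 times. Scarce enzymes (Hk1, Pfkl, Pgk1) are limited by depth.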
